A study of Mus musculus with 7 samples.

Results

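FOXO transcription factors and their target genes were followed here in mouse prostate tumours treated with RAPPD. The members were Foxo1, Foxo3, Foxo4, Ccng2, Sesn1, Sesn3, Bcl6 and Pik3ip1, and every probe annotated to 1 of these 8 gene symbols was taken, which gave 14 of the 45128 probes on the array and 8 of its 19026 gene symbols. The tumours were NPK prostate tumours, allografted into athymic nude NU/J hosts. Such hosts lack mature T cells but keep myeloid cells, and the labels give no age. The labels do not spell out NPK, and vehicle and RAPPD tumours share that genotype. There were 3 tumours from vehicle-treated hosts and 4 from hosts given RAPPD, dosed daily for 5 days and collected on the fifth day. RAPPD is not spelled out in the labels and stands in the published work for a combination of rapamycin, which inhibits mTOR, and a MEK inhibitor. Each sample was hybridised to 1 Illumina bead array, and the labels do not say whether tumours of a group had separate donors, so p-values measure only the spread between these samples.

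FOXO proteins are forkhead transcription factors that act downstream of insulin and growth factor signalling. When PI3K and AKT are active, AKT phosphorylates FOXO proteins, which bind to scaffold proteins and are held out of the nucleus. When that signal drops they enter the nucleus and raise genes of cell cycle arrest, oxidative defence and feedback on growth signalling. The arrays measured mRNA and not the location of the proteins, and in bulk tumours fewer cells of a type and less RNA per cell cannot be told apart.

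Between 20323 and 21330 probes lay above background per array, and 21249 probes that did so on at least 3 arrays were tested. Values are normalised log2 intensities unless a background-subtracted intensity on the linear scale is named, and limma's adjusted p-values cover all 21249 probes with a threshold of 0.05. Vehicle 1 and vehicle 2 were each alone on their chip, and vehicle 3 shared a chip with all RAPPD arrays. The difference within the shared chip, obtained with chip as a fixed block, therefore sets vehicle 3 alone against the 4 RAPPD arrays, with no vehicle spread of its own. Of the defining luminal epithelial markers, Epcam was not above background on any array, while 5 of 6 were detected. The summed intensity of that list was 17384 to 29072 on the vehicle arrays and 3333 to 10607 on the RAPPD arrays. Vehicle 2 stood apart by skeletal muscle markers, whose summed intensity was 77173 there and 24.5 to 188 on the other arrays. Of 6 lymphocyte markers on the array, 3 were detected on any array, and Cd3e, Cd3g and Ncr1 were not.

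FOXO factors recognise a short forkhead element, GTAAACA or its reverse complement TGTTTAC, with the core AAACA or TGTTT that overlaps it. RefSeq promoter windows (assembly GRCm38.p6, 300 bases that end 50 bases after a start) were found for 7 of the 8 genes, in 9 windows. The full element was present in 1 of these 9 windows, a Sesn1 start, and in 3.65% of all 32851 windows. The shorter core was present in 6 of 9 member windows and in 50.5% of all windows. The windows of Foxo1 and Ccng2 are shown because both genes were called higher in each fit described below, and the Sesn1 window because it alone held the full element. Capitals mark the core or the full element.
Foxo1, chr3:52268087-52268386, plus strand: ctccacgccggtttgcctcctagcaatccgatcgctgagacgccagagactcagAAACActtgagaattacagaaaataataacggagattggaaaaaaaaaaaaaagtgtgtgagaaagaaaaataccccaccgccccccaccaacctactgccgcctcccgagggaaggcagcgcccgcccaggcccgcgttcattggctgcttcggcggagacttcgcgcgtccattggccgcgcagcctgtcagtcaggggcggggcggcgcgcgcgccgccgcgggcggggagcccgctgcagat
Ccng2, chr5:93267323-93267622, plus strand: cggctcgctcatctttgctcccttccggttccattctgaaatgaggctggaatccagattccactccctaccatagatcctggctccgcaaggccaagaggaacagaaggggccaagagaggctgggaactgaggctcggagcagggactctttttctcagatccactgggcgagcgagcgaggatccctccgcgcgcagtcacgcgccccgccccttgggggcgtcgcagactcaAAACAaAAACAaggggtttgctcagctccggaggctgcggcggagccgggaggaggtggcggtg
Sesn1, chr10:41810324-41810623, plus strand: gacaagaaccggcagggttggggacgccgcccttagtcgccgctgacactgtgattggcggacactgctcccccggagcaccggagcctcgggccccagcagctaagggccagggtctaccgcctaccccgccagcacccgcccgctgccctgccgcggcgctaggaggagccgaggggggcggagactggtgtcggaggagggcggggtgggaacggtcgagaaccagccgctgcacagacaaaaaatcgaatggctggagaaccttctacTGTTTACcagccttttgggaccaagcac
The match in the Sesn1 window lies after the start, and Foxo1 and Ccng2 held only the core. The windows of Foxo3 and Sesn3 held neither string. These are matches of letters in short windows, not measured binding sites.

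Transcripts of Foxo1, Foxo3, the atypical cyclin Ccng2 and the repressor Bcl6 were higher in RAPPD tumours by 1.71-fold to 2.54-fold. Sesn1 and Sesn3 did not pass the test by any probe, and Pik3ip1 missed the threshold. Of the 14 member probes, 11 passed the filter on dim probes, 4 of them were called higher and 0 lower. Among all probes tested, 22% were called, 10.9% higher and 11% lower. The members were chosen with earlier results of these data known, so these counts are not independent support. With chip as a fixed block 2 member probes, those of Foxo1 and Ccng2, were called higher and 0 lower, against 3.09% and 4.48% of all probes. With chip as a random block the 4 calls stood, against 8.36% of all probes higher and 9.43% lower. For 5 of the 11 tested member probes every RAPPD value exceeded every vehicle value, as it did for 16.4% of all probes, and the opposite was so for 0 member probes and 16.2% of all probes.

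**Figure D1:**
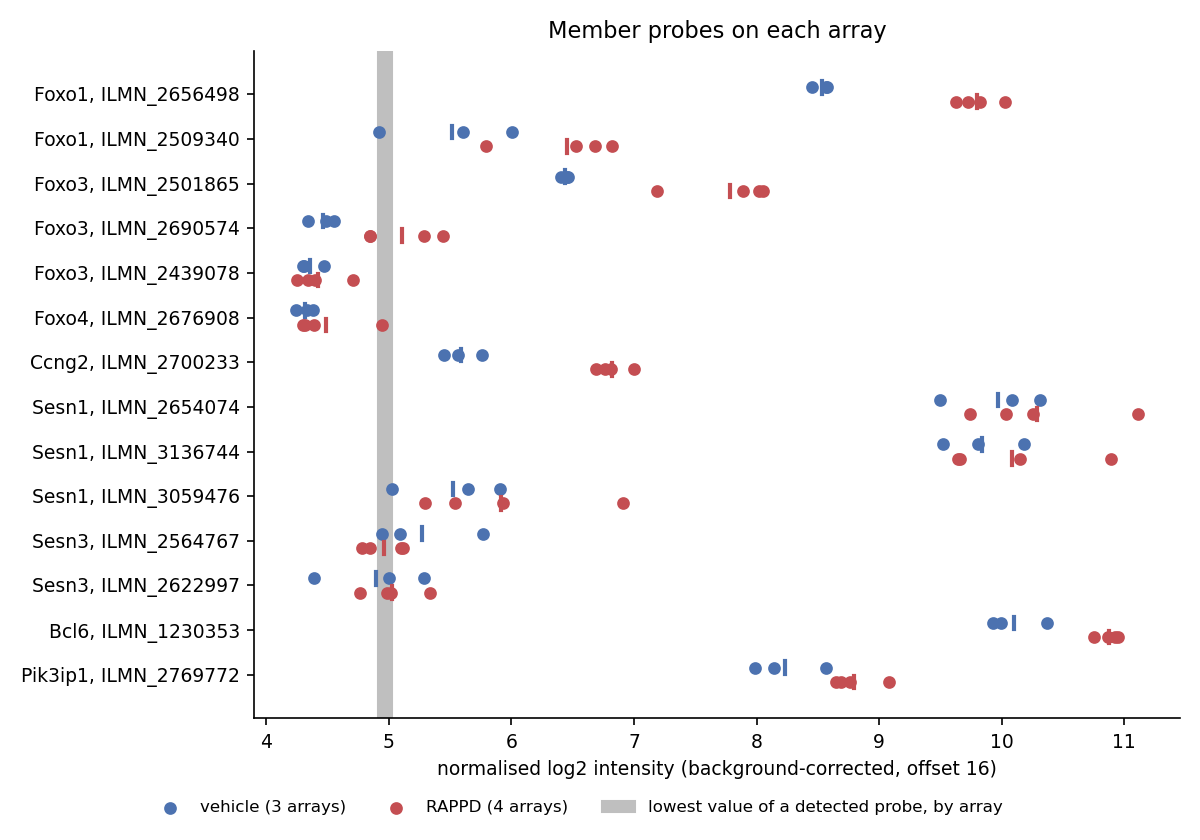
Normalised log2 intensity (x axis) of each of the 14 member probes (y axis) on every array, with vehicle arrays in blue, RAPPD arrays in red and the group mean as a vertical bar. The grey band spans the lowest value of a detected probe on the 7 arrays, near 5. RAPPD values lie wholly to the right of vehicle values for the brightest probes of Foxo1 and Foxo3 and for Ccng2, Bcl6 and Pik3ip1, and also for the Foxo3 probe ILMN_2690574, which did not pass the filter.

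Foxo1, a main insulin-responsive member of the family, was measured by 2 probes. The brighter one (ILMN_2656498) had intensities of 368, 364 and 336 on vehicle 1 to 3 and of 767, 882, 832 and 1027 on RAPPD 1 to 4. The groups did not overlap, and the vehicle arrays lay within 0.12 log2 units of each other. On the log2 scale the mean went from 8.53 ± 0.066 (SD, n = 3) to 9.80 ± 0.17 (SD, n = 4). The difference of 1.27 ± 0.16 (SE) is 2.41-fold, with a limma adjusted p of 8.79e-04. Within the shared chip it was 1.35 ± 0.23 (adjusted p = 0.0243), and over all alternatives it ranged from 0.83 to 1.35 with every call kept.

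The dimmer Foxo1 probe (ILMN_2509340) had intensities of 33.9, 13.8 and 48.1 on the vehicle arrays and of 98.5, 39.6, 77.5 and 85.9 on the RAPPD arrays. Vehicle 2 was below the detection limit of its array, and RAPPD 2 lay below vehicle 3, so the groups overlapped. Its difference of 0.94 ± 0.31 (SE, n = 4 and 3) did not pass the test (limma adjusted p = 0.0582). It passed without vehicle 3 (1.19, adjusted p = 0.0341) or without RAPPD 2 (1.16, adjusted p = 0.027), and was 0.45 within the shared chip. The probes of Foxo1 thus pointed the same way with unequal precision.

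Foxo3, which is linked to cell survival decisions and autophagy, was measured by 3 probes, of which 1 was above background throughout. That probe (ILMN_2501865) had intensities of 70.0, 69.5 and 71.2 on vehicle 1 to 3 and of 132, 245, 221 and 247 on RAPPD 1 to 4. The vehicle arrays were nearly equal, and RAPPD 1 was the lowest of the treated arrays while still above all controls. The log2 mean went from 6.44 ± 0.034 (SD, n = 3) to 7.79 ± 0.41 (SD, n = 4). The difference was 1.35 ± 0.23 (SE), or 2.54-fold, with a limma adjusted p of 0.00356. Over all alternatives it ranged from 0.42 on the submitters' processed values to 1.55 when 1 array was left out. Within the shared chip it was nearly as large, 1.33 ± 0.36, but not called (adjusted p = 0.0755).

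A further Foxo3 probe (ILMN_2690574) was not above background on any vehicle array and was above it on 2 of 4 RAPPD arrays. Its intensities were -11.7, 1.54 and -2.01 on the vehicle arrays and 10.5, 10.8, 28.0 and 23.1 on the RAPPD arrays. Its log2 means were 4.46 and 5.11 in vehicle and RAPPD tumours, and its bound was 1.10-fold. RAPPD 1 and 2 (10.5 and 10.8) lay below the detection limits of their arrays, so the bound is not a firm lower limit. The probe did not pass the filter, and in the fit without a filter its difference of 0.65 ± 0.17 (SE, n = 4 and 3) was not called (limma adjusted p = 0.0618). The bound is set against the lowest signal of a detected probe on the vehicle arrays. The other Foxo3 probe (ILMN_2439078) was not above background on any array, with intensities of -20.3 to 6.45. Foxo4, the X-linked member of the family, had 1 probe (ILMN_2676908), which was not above background on any array either, with intensities of -21.9 to 13.7. No direction can be given for Foxo4, and a planned comparison of Foxo1 with Foxo4 could not be made. Foxo6, the remaining family member, had 1 of 3 probes past the filter. It was not above background on any vehicle array and was above it on 3 of 4 RAPPD arrays, so that it passed the filter through the RAPPD group alone. Its log2 values were 4.58, 4.72 and 4.78 on vehicle 1 to 3 and 5.25, 4.72, 5.20 and 4.99 on RAPPD 1 to 4, which overlap, and no direction is given.

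Foxo1 and Foxo3 were set against each other within each array by their brightest probes. Signals of different probes do not give relative transcript levels, so only the change of this quantity between groups is read. The log2 difference of Foxo1 over Foxo3 was 2.17, 2.10 and 2.002 on vehicle 1 to 3 and 2.44, 1.80, 1.84 and 1.97 on RAPPD 1 to 4. RAPPD 1 was the highest and the other treated arrays lay below all controls. The mean difference between groups was -0.078 (exact permutation test over 35 splits of the arrays, two-sided, p = 0.714, smallest possible p 0.0286). Leaving out 1 array moved it from -0.22 (without RAPPD 1) to -0.0068 (without RAPPD 2). A difference between their responses was not detected with this number of arrays, which does not show that they respond alike. On the submitters' processed values the same quantity was 0.41 (p = 0.0286 by the exact permutation test, the smallest possible), with Foxo1 differing by 0.83 and Foxo3 by 0.42 on that scale. That scale also gave a smaller difference for the dim Ccng2 probe (0.23 against 1.22) but not for the bright Sod2 probe (1.63 against 1.59). Foxo3 had the dimmer of the compared probes, so the value of 0.41 is not read as a difference in response.

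Among the targets, Ccng2 encodes an atypical cyclin that restrains cell cycle progression and is a direct FOXO target. Its probe (ILMN_2700233) was dim, with intensities of 28.6, 30.8 and 38.4 on vehicle 1 to 3 and of 89.1, 97.7, 113 and 91.9 on RAPPD 1 to 4. Every RAPPD array was above every vehicle array, and both groups were tight. The log2 mean went from 5.59 ± 0.16 (SD, n = 3) to 6.82 ± 0.13 (SD, n = 4), a difference of 1.22 ± 0.16 (SE), or 2.34-fold (limma adjusted p = 0.0011). Within the shared chip it was 1.06 ± 0.22 (adjusted p = 0.0382). The call was kept in every alternative, while the size depended on how low intensities were treated, from 0.23 on the submitters' processed values to 1.58 with a floor of 16 in place of the background model.

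Bcl6 encodes a zinc finger repressor that FOXO factors induce in lymphoid and other cells. Its probe (ILMN_1230353) had intensities of 1326, 984 and 1015 on vehicle 1 to 3 and of 1715, 1934, 1941 and 1852 on RAPPD 1 to 4. The groups did not overlap, and the treated arrays lay within 0.19 log2 units. The difference was 0.77 ± 0.17 (SE, n = 4 and 3), or 1.71-fold (limma adjusted p = 0.0118). Within the shared chip it was 0.88 ± 0.21 (adjusted p = 0.0534), of larger size but not called. The summed intensity of the lymphocyte markers was 40.9 to 141 on the vehicle arrays and 3.02 to 22.1 on the RAPPD arrays. The B cell receptor gene Cd79b, the only one of them tested, was above background on all vehicle arrays and on 1 of 4 RAPPD arrays. It fell by 1.58 ± 0.25 (SE, n = 4 and 3; limma adjusted p = 0.00278), and stood at -2.05 within the shared chip. Most of its RAPPD values lay at background, so the size of the fall is uncertain. The part of lymphocytes in the Bcl6 difference was not tested.

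Pik3ip1 encodes a membrane protein that inhibits PI3K, so that its induction feeds back on the pathway upstream of FOXO. Its probe (ILMN_2769772) had intensities of 267, 364 and 238 on the vehicle arrays and of 383, 416, 525 and 397 on the RAPPD arrays. The groups did not overlap, with vehicle 2 close to RAPPD 1. The difference of 0.57 ± 0.20 (SE, n = 4 and 3) was not called (limma adjusted p = 0.0702). It was called without vehicle 2 (0.73, adjusted p = 0.0383), the array with muscle transcripts, and with a background offset of 50 (0.52, adjusted p = 0.0482), and within the shared chip it was 0.81 ± 0.25 (adjusted p = 0.096).

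Sesn1 and Sesn3 encode sestrins, stress-induced proteins that restrain mTORC1 and limit oxidative damage. Sesn1 was measured by 3 probes, and by each of them RAPPD 1 was the highest treated array and RAPPD 2 the next. The brightest (ILMN_2654074) had intensities of 713, 1094 and 1253 on vehicle 1 to 3 and of 2209, 1190, 1021 and 841 on RAPPD 1 to 4. RAPPD 1 stood above all other arrays, while the other treated arrays lay within the range of the controls. The second (ILMN_3136744) had intensities of 877, 724 and 1145 in the vehicle group and of 1890, 1110, 783 and 794 in the RAPPD group. The dimmest (ILMN_3059476) had 35.2, 16.4 and 44.0 against 107, 45.5, 30.7 and 23.2. RAPPD 1 was again the highest of all arrays by both. The differences of the 3 probes were 0.32 ± 0.33, 0.25 ± 0.31 and 0.40 ± 0.38 (SE, n = 4 and 3), with limma adjusted p-values of 0.527, 0.612 and 0.492. Without RAPPD 1 they were 0.044, -0.019 and 0.063, and within the shared chip -0.031, -0.094 and 0.014. The 95% interval of the brightest probe, -0.42 to 1.05, holds both no change and a doubling.

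Sesn3, a sestrin gene that FOXO factors induce, was near background by both of its probes. The probe ILMN_2564767 was above background on all vehicle arrays and on 2 of 4 RAPPD arrays, with intensities of 39.9, 14.2 and 17.5 against 17.6, 10.7, 8.88 and 18.4. The probe ILMN_2622997 was above background on 2 vehicle and 2 RAPPD arrays, with intensities of 23.5, -7.36 and 15.2 against 14.6, 24.3, 8.26 and 15.5. The groups overlapped by both. Their differences were -0.30 ± 0.23 and 0.13 ± 0.24 (SE, n = 4 and 3; limma adjusted p = 0.368 and 0.736), so that no change in Sesn3 was detected. The 95% intervals were -0.81 to 0.20 and -0.41 to 0.67. Leaving out 1 array moved the first from -0.47 (without vehicle 2) to -0.053 (without vehicle 1).

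**Figure D2:**
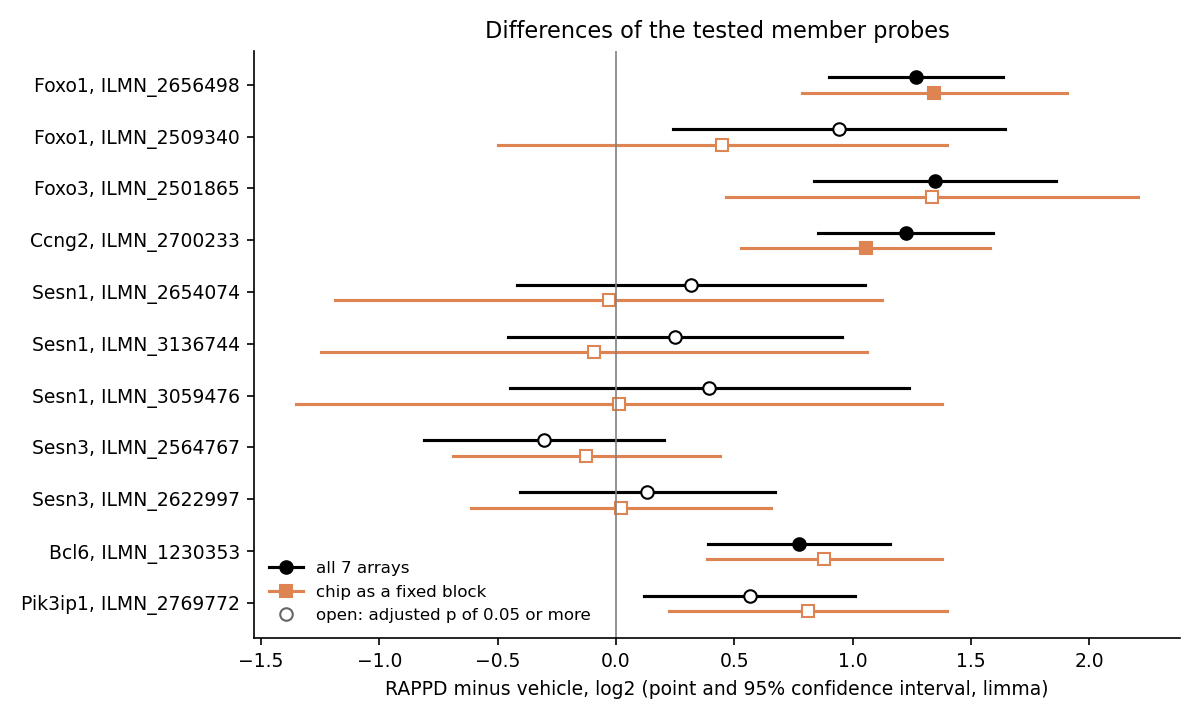
Difference between RAPPD and vehicle (x axis, log2, with 95% confidence interval from limma) for the 11 tested member probes (y axis), over all 7 arrays (black circles) and with chip as a fixed block (orange squares). Filled symbols had an adjusted p under 0.05. The 4 filled circles lie between 0.77 and 1.35. The intervals of Sesn1 and Sesn3 span 0, as does the orange interval of the dimmer Foxo1 probe, and every orange interval is wider than the black one.

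Across the RAPPD arrays the members did not share 1 order. RAPPD 1 had the lowest treated value for the brightest probes of Foxo1 and Foxo3 and for Ccng2, Bcl6 and Pik3ip1, and the highest for all 3 Sesn1 probes and the dimmer Foxo1 probe. After centring on its mean over the 7 arrays, Foxo3 stood at -0.03 on RAPPD 1 and at 0.68 to 0.84 on RAPPD 2 to 4, while the brightest Sesn1 probe stood at 0.96 and at -0.41 to 0.11. Ccng2 ranged over 0.30 log2 units within the RAPPD group and Foxo3 over 0.87. Marker lists of several cell types, luminal epithelium among them, moved along the same arrays. The summed intensity of 7 neutrophil markers was 2818 to 11100 on the vehicle arrays, 20577 on RAPPD 1 and 55726 to 63966 on RAPPD 2 to 4, and 6 of them were called higher. That of 6 fibroblast markers was 17357 to 35770 on the vehicle arrays, 24887 on RAPPD 1 and 40101 to 60047 on the others, with 2 called higher. The luminal list was 10607 on RAPPD 1 and 3333 to 4490 on RAPPD 2 to 4, with 3 of 5 tested markers called lower. With chip as a fixed block these calls changed to 1 neutrophil marker higher, 0 fibroblast markers higher and 1 lower, and 1 luminal marker lower. The part of these cells in the member differences was not tested. The endothelial list, in cells that use Foxo1 strongly, was 1880 to 2448 on the vehicle arrays and 1583 to 2923 on the RAPPD arrays, with 0 of 6 called higher and 1 lower. The sum of the macrophage list overlapped between groups too (7022 to 11892 and 6518 to 10063), but its markers differed. Mrc1, the 1 of 5 called lower, and Adgre1 were lower on every RAPPD array (-1.22 and -0.89, and -1.53 and -1.75 within the shared chip). Csf1r, C1qa and C1qb lay at 0.49, 0.078 and 0.25 and were not called.

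**Figure D3:**
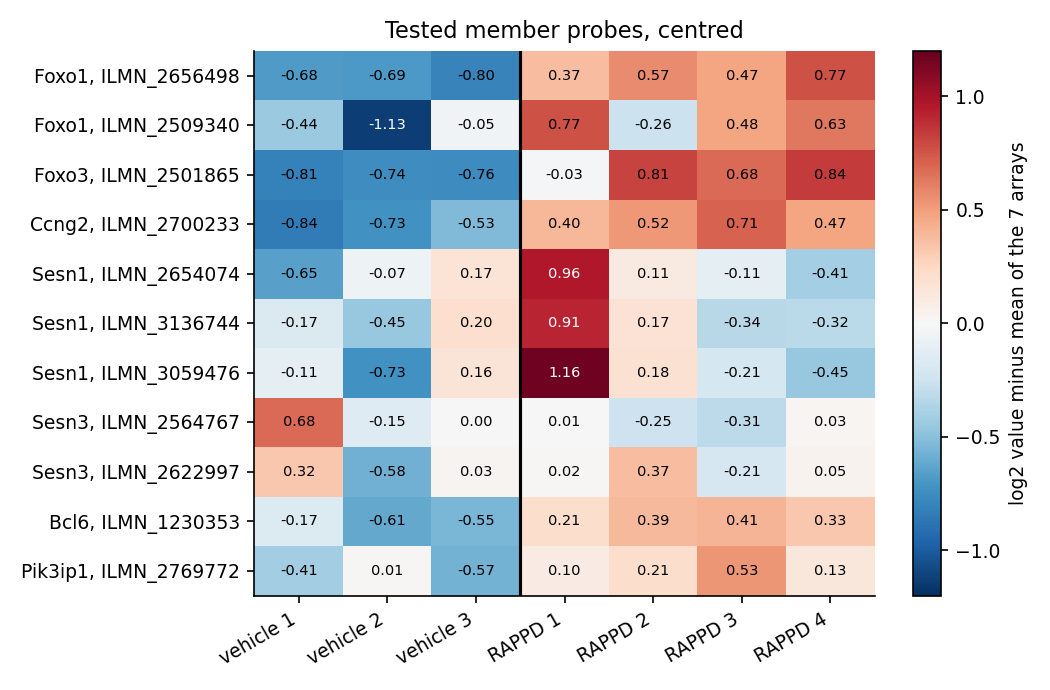
Log2 value minus the probe's mean over the 7 arrays (colour and printed number) for the 11 tested member probes (rows) on each array (columns), with a line between vehicle and RAPPD arrays. Foxo1 (brightest probe), Foxo3, Ccng2 and Bcl6 are below 0 on all vehicle arrays, and the Sesn1 probes reach 0.91 to 1.16 on RAPPD 1 only.

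The genes whose array profiles lay closest to the brightest Foxo1 probe, by root mean square difference of centred log2 values over 7 arrays among 11084 other genes, were the T-box factor Tbx3 (0.067), the sulfatase Arsg (0.093) and the forkhead factor Foxn3 (0.096). For Foxo3 they were the extracellular sulfatase Sulf1 (0.11), Arhgap24 (0.12) and Clba1 (0.15). These distances describe likeness over 2 treatment groups and carry no test. Foxn3 was at 9.73, 9.95 and 9.84 on vehicle 1 to 3 and at 10.82, 11.14, 11.14 and 11.25 on RAPPD 1 to 4.

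Other genes bound or regulated by FOXO factors were followed through a list of 47 genes, each by its brightest probe. The list also holds the FOXO factor Foxo6, which was tested and not called. Of the 40 that could be tested, 13 rose, 3 fell and 24 did not pass the test. Among all 11085 genes, 10.6% rose and 12.7% fell. The median difference of the list was 0.44, against -0.014 over all genes. The list was chosen with earlier results of these data known, so its excess over all genes is not independent support. With chip as a fixed block 7 were called higher and 1 lower, against 3.11% and 5.33% of all genes, and 6 of the 13 were called higher in both fits.

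The stress and autophagy gene Depp1, a known FOXO target, stood at 7.45, 8.20 and 8.41 on vehicle 1 to 3 and at 10.21, 11.14, 11.49 and 11.73 on RAPPD 1 to 4. It rose by 3.12 ± 0.37 (SE, n = 4 and 3; limma adjusted p = 5.47e-04), or 8.70-fold, with no overlap between groups. Among the growth arrest genes Gadd45b rose by 2.70 ± 0.21 and Gadd45g by 1.76 ± 0.29 (limma adjusted p = 5.07e-05 and 0.00311), although another probe of Gadd45b lay at 0.76. Mitochondrial superoxide dismutase Sod2, also a target of NF-kB, rose by 1.59 ± 0.16 and the CDK inhibitor gene Cdkn1a, also a target of p53, by 1.04 ± 0.18 (limma adjusted p = 2.10e-04 and 0.00414). Gadd45g and Cdkn1a were not called within the shared chip (1.87 and 0.94, adjusted p = 0.0637 and 0.0858). The other 8 that rose (Bcl2l11, Ulk1, Klf6, Hbp1, Klf2, Ppargc1a, Klf4 and Igf1r, named after their values were seen) differed by 0.61 to 1.12. Further tested probes lay at 0.0045 to 1.28 for Hbp1, 0.24 and 0.49 for Igf1r and 0.46 to 1.14 for Bcl2l11. Those of Ulk1, Klf6 and Klf4 lay at 0.69 to 1.15. Within the shared chip Bcl2l11 and Hbp1 differed less (0.63 and 0.45) and the others more (0.81 to 1.70). The CDK inhibitor gene Cdkn1b, a classical FOXO target also named after its value was seen, was not called, at 0.067 ± 0.26 (SE, n = 4 and 3; limma adjusted p = 0.882). Its vehicle values spread from 8.15 on vehicle 3 to 9.36 on vehicle 1, and within the shared chip the difference was 0.70 ± 0.20 (adjusted p = 0.0875).

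The genes that fell were led by the D cyclins Ccnd1 and Ccnd2, which FOXO factors are known to repress. Ccnd2 stood at 13.68, 13.56 and 12.47 on vehicle 1 to 3 and at 11.46, 11.24, 11.16 and 11.71 on RAPPD 1 to 4. It fell by 1.84 ± 0.30 (SE, n = 4 and 3; limma adjusted p = 0.00282), and by 1.07 within the shared chip (adjusted p = 0.0634). Ccnd1, also a target of ERK signalling, fell by 2.96 ± 0.23 (limma adjusted p = 4.86e-05), and its other probes lay at -3.18 and -3.17. The BH3-only gene Pmaip1 fell by 0.93 ± 0.23 (limma adjusted p = 0.0199), a call that was lost without vehicle 1, vehicle 2, RAPPD 3 or RAPPD 4 (-0.92 to -0.80, adjusted p 0.0513 to 0.0741) and within the shared chip (-0.80, adjusted p = 0.217).

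The muscle ubiquitin ligase gene Fbxo32 (atrogin), named after its values were seen, was not called over all arrays and was called without vehicle 2 and within the shared chip. It stood at 7.34, 9.91 and 7.55 on vehicle 1 to 3 and at 8.83, 9.23, 9.44 and 9.74 on RAPPD 1 to 4, so that vehicle 2, the array with muscle transcripts, was the highest of all. Its difference was 1.04 ± 0.55 (SE, n = 4 and 3; limma adjusted p = 0.207), and without vehicle 2 it was 1.86 ± 0.26 (adjusted p = 0.00377). Within the shared chip it was 1.76 ± 0.35 (adjusted p = 0.0333), and without vehicle 1 or vehicle 3 it was 0.58 or 0.68 and not called. The mitochondrial kinase gene Pdk4, also named after its values were seen, was likewise highest on vehicle 2, at 4.96, 9.79 and 4.97 on vehicle 1 to 3 and at 6.62, 7.06, 8.48 and 7.49 on RAPPD 1 to 4. Its difference of 0.83 ± 1.05 (SE, n = 4 and 3) was not called (limma adjusted p = 0.612), and within the shared chip it was 2.43. Cdkn1b, Fbxo32 and Pdk4 do not stand for all 24 target genes that did not pass the test. Of the others, Cat, Sesn2 and Txnip lay at -0.54, -0.59 and 0.18, and within the shared chip at -0.65, -0.37 and -0.16. Irs2 and Gabarapl1 lay at 0.91 and 0.55, and within the shared chip at 1.13 and 0.63.

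**Figure D4:**
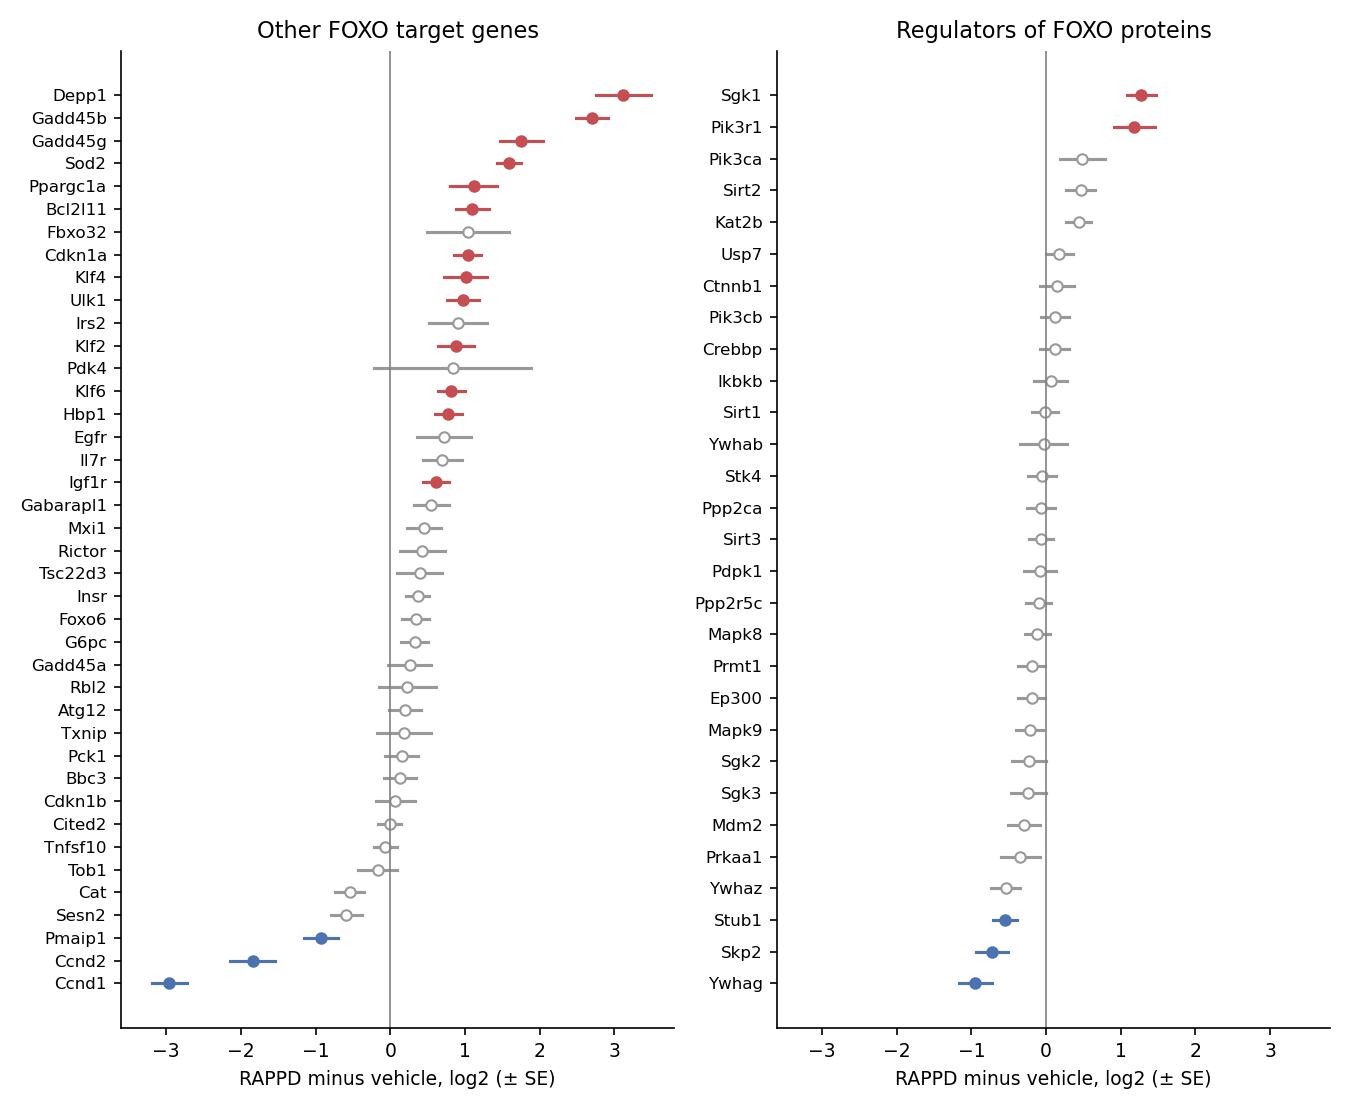
Difference between RAPPD and vehicle (x axis, log2, point and SE) for 40 tested genes of the FOXO target list (left) and 29 tested genes that act on FOXO proteins (right), sorted by value. Filled red and blue points had an adjusted p under 0.05 and were higher or lower, and open grey points did not pass. Depp1 is farthest right and Ccnd1 farthest left. The left list includes Foxo6, itself a FOXO factor.

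Genes whose products act on FOXO proteins were followed in the same way. Of 38 such genes 29 were tested, 2 rose, 3 fell and 24 did not pass the test, with a median difference of -0.071 against -0.014 over all genes. Over all genes tested 10.6% rose and 12.7% fell, so neither count exceeds that background, and 0 were called within the shared chip. The kinase Sgk1, which phosphorylates FOXO factors much as AKT does, stood at 12.72, 12.57 and 12.70 on vehicle 1 to 3 and at 13.56, 14.15, 14.19 and 13.88 on RAPPD 1 to 4. It rose by 1.28 ± 0.19 (SE, n = 4 and 3; limma adjusted p = 0.00206), and was 1.24 within the shared chip (adjusted p = 0.0547). The PI3K regulatory subunit gene Pik3r1 rose by 1.18 ± 0.27 (limma adjusted p = 0.0139), a call lost without vehicle 1 or vehicle 2 (1.14 and 0.99, adjusted p = 0.0548 and 0.0518) and within the shared chip (0.71, adjusted p = 0.258). The gene Ywhag, whose product binds phosphorylated FOXO factors, fell by 0.95 ± 0.22 (limma adjusted p = 0.0153), with its other probe at 0.13, and its call was lost without vehicle 1 (-0.94, adjusted p = 0.0534) and within the shared chip (-0.52, adjusted p = 0.228). The ubiquitin ligase genes Stub1 and Skp2, whose products target FOXO proteins for degradation, fell by 0.55 ± 0.16 and 0.72 ± 0.21 (limma adjusted p = 0.0376 for both). The other tested probe of Stub1 lay at -0.17. Stub1 was not called without vehicle 1, vehicle 3, RAPPD 2, RAPPD 3 or RAPPD 4, and Skp2 was called without RAPPD 1 alone, with differences of -0.64 to -0.48 and -0.85 to -0.53 when 1 array was left out. Akt1 and Akt2 did not pass the filter.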

How the data were processed

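The 7 arrays were grouped by the treatment in the labels. The deposited table held linear intensities, 1 per probe and array, already background-subtracted as their negative values show, and a further deposited table gave the submitters' processed values, read as log2-like, whose transform and centring are unknown (column medians 8.021 to 8.025) and which served only as an alternative. BeadStudio and lumi are named, without versions or roles, in the submitters' processing notes. The intensity table as read here held no detection p-values or control probes, so limma's neqc could not be run.

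Intensities were corrected by normexp with a background mean of 0 and an SD taken from each array's negative values, raised by an offset of 16, quantile normalised across arrays and taken to log2. A probe was detected where it exceeded the upper 0.05 tail of that background (intensities of 13.8 to 15.4). Probes were named through the platform annotation, where 34776 of 45128 had 1 symbol, 18 had several and 10334 were unnamed here, and the RefSeq symbol of the Entrez ID was the same for all 14 member probes. Probes detected on at least 3 arrays were fitted with limma 3.58.1 (lmFit and eBayes, R 4.3.3), with two-sided p-values and the Benjamini-Hochberg adjustment across all 21249 probes. A list gene was represented by its tested probe of highest mean. A probe not detected on any array of 1 group has a bound.

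Every member probe is reported. From the other lists the up to 5 genes of smallest p called in each direction are named, with Foxo6, as are the 3 genes nearest in profile to Foxo1 and to Foxo3. The members and lists were chosen with earlier results of these data known. Alternatives were another offset, a floor, 75th percentile scaling, cyclic loess, the submitters' processed values, other filters, 1 probe per gene, chip as a fixed or random block (duplicateCorrelation with statmod 1.5.0, correlation 0.311), a variance trend and leaving out each array. A simulated set of 4 against 3 arrays, in which 200 of 21249 probes were changed, was also put through limma. There 40% of 2-fold and 94% of 4-fold changes were called, and 5.63% of calls fell on unchanged probes. In the measured data 22% of probes were called, a larger share than was changed in the simulation. The simulated shares therefore do not give the sensitivity or the share of false calls in the measured comparison. Precision is limited by the number of arrays.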

Additional observations from a re-analysis of the deposited data

How the results depend on the processing

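With chip as a fixed block 656 probes were higher and 951 lower, with 2 member probes, 7 other targets and 0 regulators higher, and 1 other target and 0 regulators lower. The Foxo3 and Bcl6 calls were lost there (1.33 and 0.88), and Sesn1 changed sign by 2 probes (-0.031 and -0.094). That fit leaves 1 vehicle array. With 1 probe per gene 1214 and 1457 genes were called. The Foxo1 to Foxo3 ratio changed sign with an offset of 50 (0.11), on the submitters' processed values (0.41) and within the shared chip (0.011), and the dimmer Sesn3 probe with a floor of 16 (-0.025). Leaving out 1 array gave 1443 to 2489 probes higher and 1440 to 2360 lower, both lowest without vehicle 1, with 1 to 2 regulators higher and 0 to 4 lower. It gave -0.019 to 0.42 for the Sesn1 probe ILMN_3136744 and -0.12 to 0.33 for the dimmer Sesn3 probe. The 4 member calls were kept in the other 17 alternatives, with 4 or 5 member probes called higher and 0 lower. The cause of these changes was not tested. Probes near background (Foxo4, Sesn3 and the dimmer Foxo3 probes) limit what can be said of those genes. No paired analysis was possible because the labels give no replicate numbers that pair vehicle with RAPPD tumours.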
